A study of Mus musculus with 8 samples.

Results

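Receptors of natural killer (NK) cells were followed in tumors of the mouse pancreatic cancer line FC1242. The set was 10 genes: Ncr1, Klrb1c, Klrk1, Klrd1, Klre1, Klrb1f, Klrg1, Klra4, Klra8 and Klra7, chosen by symbol out of 52459 genes listed in the bulk count table. All 10 were also listed in both single-cell matrices. In the bulk libraries they were compared between liver tumors and primary tumors, and in the single-cell libraries between NK-like cells and T-like cells.

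FC1242 is a line from a KPC mouse, a genetic model of pancreatic cancer. Liver metastatic tumors (3 bulk libraries) and primary pancreatic tumors (3 bulk libraries) were grown in C57BL/6 mice from 100000 injected FC1242 cells and harvested after 3 weeks. Sorted CD45+ cells of each site gave 1 10x library, so there were 2 single-cell libraries and 8 samples in all. Every group carried the same line in the same strain, with no untreated or tumor-free tissue among them, and the labels used here do not say whether a library came from 1 mouse or from pooled mice. P-values therefore measure the spread between these libraries, which may be technical in part. The labels gave no batch.

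NK cells kill without a rearranged antigen receptor, and balance signals from activating receptors against signals from inhibitory ones. Ncr1 encodes NKp46, an activating receptor of the immunoglobulin family. The other genes encode C-type lectin-like receptors of the NK gene complex on chromosome 6. Klrb1c encodes the NK1.1 antigen, an activating receptor by which NK cells of C57BL/6 mice are recognised. Klrk1 encodes NKG2D, which binds stress-induced relatives of MHC class I such as the Raet1, H60 and Ulbp1 proteins. Klrd1 encodes CD94, which pairs with NKG2 proteins to read the non-classical class I molecule Qa-1. Klre1 pairs with Klri1 or Klri2, Klrb1f binds a Clec2 family ligand, and Klrg1 is an inhibitory receptor of cadherins. Klra4 (Ly49D), Klra8 (Ly49H) and Klra7 (Ly49G) belong to the Ly49 family. Ly49D and Ly49H are activating and signal through the adaptor DAP12 (gene Tyrobp), whereas Ly49G is inhibitory. Ly49 genes are known to be switched on in some NK cells and not in others, and several members are also used by activated CD8 T cells.

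In GENCODE vM21 (build GRCm38) each gene is annotated as protein coding. Ncr1 lies at chr7:4337724-4345164 on the plus strand. The others lie on chromosome 6, from Klrg1 at chr6:122270596-122282882 on the minus strand to Klra7 at chr6:130218605-130233322 on the minus strand. Between these are Klrb1c at chr6:128778485-128789215 (minus), Klrb1f at chr6:129045901-129057464 (plus), Klre1 at chr6:129577905-129585827 (plus), Klrd1 at chr6:129591782-129598775 (plus), Klrk1 at chr6:129610323-129623864 (minus), Klra4 at chr6:130043731-130067271 (minus) and Klra8 at chr6:130115226-130129898 (minus).

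The promoters of the Ly49 genes are shown because these neighbouring genes, alike in sequence, had different values in tumor libraries and in single cells. Promoter sequences of RefSeq (build GRCm38.p6) were found for 8 of the 10 members. The 250 bases before the start of Klra4 (chr6:130067272-130067521, minus strand), Klra8 (chr6:130129899-130130148, minus strand) and Klra7 (chr6:130233323-130233572, minus strand) read as follows, 5′ to 3′. Capitals in Klra4 mark the bases that were not identical in an alignment with Klra8, and capitals in Klra8 and Klra7 those not identical in an alignment with Klra4.
Klra4: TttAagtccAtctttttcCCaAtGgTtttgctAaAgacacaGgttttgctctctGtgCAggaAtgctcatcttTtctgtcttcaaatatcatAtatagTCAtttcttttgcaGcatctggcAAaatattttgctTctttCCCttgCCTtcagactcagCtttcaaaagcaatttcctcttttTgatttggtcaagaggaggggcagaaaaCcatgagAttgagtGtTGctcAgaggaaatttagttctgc
Klra8: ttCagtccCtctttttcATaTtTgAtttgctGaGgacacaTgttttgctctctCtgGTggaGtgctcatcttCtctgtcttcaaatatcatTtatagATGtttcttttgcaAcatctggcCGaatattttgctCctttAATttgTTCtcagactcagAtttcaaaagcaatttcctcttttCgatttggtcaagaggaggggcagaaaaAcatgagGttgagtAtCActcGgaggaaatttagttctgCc
Klra7: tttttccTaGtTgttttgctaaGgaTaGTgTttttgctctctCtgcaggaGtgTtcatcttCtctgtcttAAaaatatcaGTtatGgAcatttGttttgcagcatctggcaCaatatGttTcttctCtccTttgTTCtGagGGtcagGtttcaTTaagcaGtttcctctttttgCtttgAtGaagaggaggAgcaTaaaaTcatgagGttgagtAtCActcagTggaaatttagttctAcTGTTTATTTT
Klra4 and Klra8 were identical at 85.1% of 249 aligned bases, and Klra4 and Klra7 at 81.5% of 238. In the transcripts the likeness bears on counting. Of the 50-base stretches of the annotated transcripts, 33.1% of those of Klra8 also occurred in other genes (most of all Klra14-ps), 17.0% of those of Klrb1c (most of all Gm44511), 12.3% of those of Klra7 (in Klra13-ps) and 4.68% of those of Klra4 (most of all Klra1). Counts of these genes are uncertain to that extent. Of Klre1, 0.280% was shared, and of Ncr1, Klrk1, Klrd1, Klrg1 and Klrb1f none.

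Ncr1 and Klrk1 are shown for the letters TGTGGT, the core bound by RUNX factors, among them Runx3 of NK cells and CD8 T cells. Capitals mark it, read on either strand, in the 250 bases before the starts of Ncr1 (chr7:4337474-4337723, plus strand) and Klrk1 (chr6:129623865-129624114, minus strand).
Ncr1: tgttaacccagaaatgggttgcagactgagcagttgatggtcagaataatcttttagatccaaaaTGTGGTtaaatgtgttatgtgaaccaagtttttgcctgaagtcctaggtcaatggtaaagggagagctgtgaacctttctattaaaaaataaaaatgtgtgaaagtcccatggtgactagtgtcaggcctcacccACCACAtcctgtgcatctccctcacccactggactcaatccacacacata
Klrk1: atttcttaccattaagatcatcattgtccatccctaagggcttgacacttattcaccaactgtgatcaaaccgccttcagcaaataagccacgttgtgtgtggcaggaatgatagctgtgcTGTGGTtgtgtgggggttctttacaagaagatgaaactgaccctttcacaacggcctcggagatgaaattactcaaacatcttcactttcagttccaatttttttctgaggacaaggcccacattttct
Ncr1 held 2 matches, beginning 185 and 50 bases before the start, and Klrk1, Klrb1c and Klre1 held 1 each. The promoters of Klra4, Klra8, Klra7 and Klrb1f held none. Of 32851 mouse promoter windows of this length, 14.0% held at least 1 match and 1.27% at least 2. A match describes the letters only.

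The bulk libraries held 28513818, 36743247 and 34398930 reads in liver tumors and 32326042, 27481390 and 33156529 reads in primary tumors. Liver tumors carried more leukocyte transcript: Ptprc, which encodes CD45, had 41.9, 60.8 and 59.1 CPM (reads of a gene per 1000000 reads of the library) in liver tumors and 19.3, 23.4 and 20.9 CPM in primary tumors (edgeR log2 change 1.35, SE 0.20, adjusted p = 0.00228). In a bulk library, more cells of a type and more RNA per cell cannot be told apart. Hepatocyte RNA was in the liver libraries as well, with Alb at a mean of 45810 CPM, against 9.84 CPM in primary tumors. Levels of a gene are given as CPM after TMM scaling, and a called gene is one with a Benjamini-Hochberg adjusted p under 0.05 in edgeR's quasi-likelihood test over all 16487 genes tested.

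Of the 10 members, 7 had enough reads to be tested, and 3 of these were higher in liver tumors: Klrk1, Klrd1 and Klrb1c. None was lower by edgeR, by DESeq2 or at an unadjusted p under 0.05. Of all genes tested, 16.7% were called higher and 6.26% lower. The median log2 change was 1.10 over the 7 tested members and -0.07 over all tested genes. Every called member passed the filter on low counts in these same libraries, so the count covers the 7 and not the set of 10. Klrb1c passed that filter by its liver libraries alone, with 23, 12 and 23 reads there and 7, 4 and 9 in primary tumors. Its place in the count and in the median of 1.10 thus came from the site where it was high. Without the filter its edgeR adjusted p was 0.0384. The count of members higher was 1 without primary replicate 1 or without primary replicate 3.

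**Figure D1:**
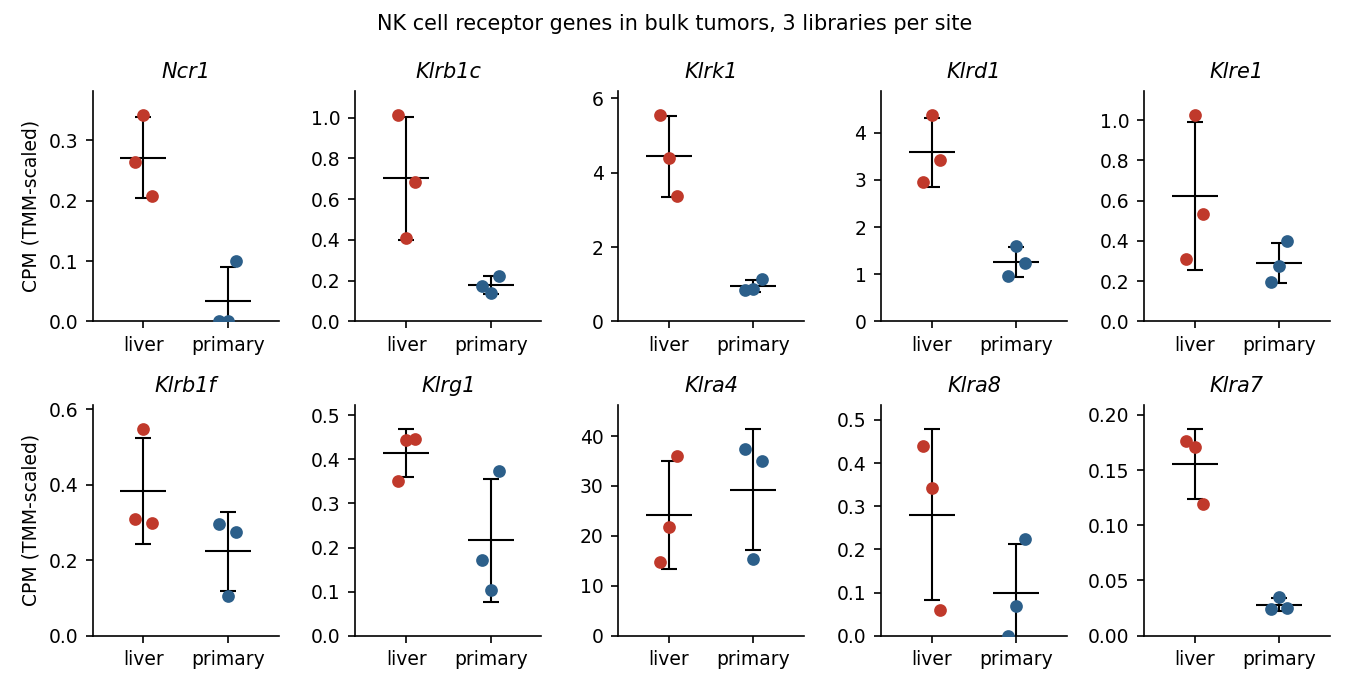
Level of each member in CPM (vertical axes, each with its own scale from 0) in 3 liver and 3 primary libraries. Points are libraries and the bars show the mean ± SD; for Klrk1 the liver libraries sit between 3.36 and 5.54 CPM and the primary ones between 0.836 and 1.14 CPM, whereas for Klra4 the sites overlap.

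Klrk1 (NKG2D) changed most among the tested members. It had 5.54, 4.40 and 3.36 CPM in liver tumors and 0.836, 0.866 and 1.14 CPM in primary tumors. The lowest liver library was above the highest primary one, as for 23.8% of all tested genes, while 20.2% had every liver library below. The log2 change was 2.22 (SE 0.36, edgeR adjusted p = 0.00300), from 368 reads in liver tumors and 105 in primary tumors, and this call held without any single library.

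Klrd1 (CD94) had 2.95, 4.37 and 3.42 CPM in liver tumors and 0.959, 1.59 and 1.24 CPM in primary tumors, and the sites did not overlap. Its log2 change was 1.50 (SE 0.36, edgeR adjusted p = 0.0188). Klrb1c (NK1.1) was far lower in reads, with 23, 12 and 23 in liver tumors and 7, 4 and 9 in primary tumors. That is 1.01, 0.410 and 0.685 CPM in liver tumors and 0.172, 0.139 and 0.224 CPM in primary tumors, again without overlap (log2 change 1.93, SE 0.49, edgeR adjusted p = 0.0253). Both calls depended on single libraries. The edgeR adjusted p of Klrd1 was 0.0989 without liver replicate 2, 0.0582 without primary replicate 1 and 0.0602 without primary replicate 3. That of Klrb1c was 0.0864 without liver replicate 1, 0.0691 without liver replicate 3, 0.0708 without primary replicate 1 and 0.0564 without primary replicate 3.

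Klre1, Klrg1 and Klrb1f did not pass. Klre1 had 0.308, 1.02 and 0.536 CPM in liver tumors and 0.197, 0.277 and 0.398 CPM in primary tumors, which overlapped (log2 change 1.10, SE 0.54, edgeR adjusted p = 0.182). Klrg1 had 0.352, 0.444 and 0.447 CPM in liver tumors and 0.172, 0.104 and 0.373 CPM in primary tumors, also with overlap (0.90, SE 0.53, edgeR adjusted p = 0.252). Klrb1f had 0.308, 0.546 and 0.298 CPM in liver tumors and 0.295, 0.104 and 0.274 CPM in primary tumors (0.74, SE 0.52, edgeR adjusted p = 0.345). The libraries of Klrb1f were apart only by 0.298 against 0.295 CPM. No liver library of these 3 genes held more than 30 reads.

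Ncr1, Klra7 and Klra8 had too few reads for the test. Ncr1 had 6, 10 and 7 reads in liver tumors and 0, 0 and 4 in primary tumors, so every liver library held more. Klra7 had 4, 5 and 4 reads in liver tumors and 1 read in each primary tumor. Klra8 had 10, 10 and 2 reads in liver tumors and 0, 2 and 9 in primary tumors, and here the sites overlapped. Without the filter on low counts, the edgeR adjusted p was 0.0664 for Ncr1, 0.127 for Klra7 and 0.425 for Klra8. On the authors' FPKM, Ncr1 and Klra7 passed: limma on log2(FPKM + 1) gave an adjusted p of 0.0272 for Ncr1 and 0.0304 for Klra7, and limma on log2(FPKM + 0.1) gave 0.0252 for Ncr1 and 0.0306 for Klra7.

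Klra4 (Ly49D) stood apart from the rest of the set in level. It had 14.8, 21.8 and 36.0 CPM in liver tumors and 37.3, 15.5 and 35.0 CPM in primary tumors. Liver replicate 3 and primary replicates 1 and 3 were high, liver replicate 1 and primary replicate 2 were low, and the sites overlapped (log2 change -0.28, SE 0.41, edgeR adjusted p = 0.666). Per length, on the authors' FPKM scale, Klra4 averaged 19.4 ± 8.40 in liver tumors and 23.3 ± 9.49 in primary tumors (SD, n = 3 each). Klrd1, second in order, averaged 2.81 ± 0.619 and 0.980 ± 0.246 FPKM at the same sites. Klrk1 followed with 0.620 ± 0.155 FPKM in liver tumors and 0.133 ± 0.0231 FPKM in primary tumors, and Klrg1, Klra8, Klrb1c, Klrb1f, Klre1, Ncr1 and Klra7 had a mean between 0.123 and 0.293 FPKM in liver tumors and between 0.0200 and 0.150 FPKM in primary tumors. In liver tumors the libraries of each of these 7 overlapped those of its neighbours in the order. Klra4 made up 56.6%, 64.4% and 79.7% of all reads of the set in liver tumors and 93.4%, 82.9% and 89.7% in primary tumors.

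**Figure D2:**
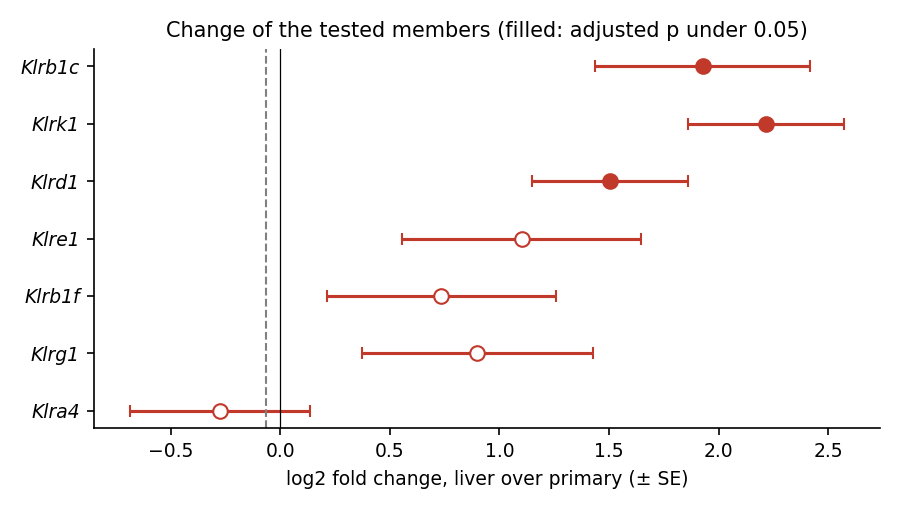
Log2 fold change of liver over primary tumors (horizontal axis) with its standard error for the 7 tested members, filled where the edgeR adjusted p was under 0.05. The dashed line is the median of all tested genes at -0.07, and Klra4 at -0.28 is the only one of the 7 on its left.

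Set against leukocyte transcript, Klrk1 alone of the called members kept its sites apart. Without Klra4, reads of the set per 100 Ptprc reads were 27.1, 19.8 and 15.5 in liver tumors and 13.7, 13.6 and 19.1 in primary tumors, which overlapped. Klrk1 had 13.2, 7.24 and 5.70 reads per 100 Ptprc reads in liver tumors and 4.33, 3.70 and 5.47 in primary tumors, with every liver library still above. Klrd1 had 7.03, 7.19 and 5.80 in liver tumors and 4.96, 6.81 and 5.95 in primary tumors, which overlapped. Klra4 had 35.3, 35.8 and 60.9 reads per 100 Ptprc reads in liver tumors and 193, 66.1 and 168 in primary tumors, and here every liver library was below every primary one. By the same ratio to Ptprc, 8.27% of all tested genes had every liver library above and 67.3% every liver library below the primary ones, so Klra4 shared its place with most genes. Per CD3 read and per read of the T cell list, the sites overlapped for Klra4. Per 100 reads of Cd3d, Cd3e and Cd3g together, the set without Klra4 had 103, 202 and 121 reads in liver tumors and 80.0, 44.9 and 62.4 in primary tumors. Every liver library was above every primary library in this ratio, as for 10.5% of all tested genes, while 27.3% had every liver library below. By member, Klrk1, Klrb1c, Ncr1 and Klra7 also had every liver library above, whereas Klrd1, Klre1, Klrg1, Klrb1f and Klra8 overlapped between the sites. With 3 libraries against 3, an exact permutation test cannot go below 0.1, so no p is given.

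Lectin-like receptors of the same gene complex that were no members gave 9 tested genes of 21 in the table. Of these, 5 were higher and 0 lower in liver tumors by edgeR (also 0 lower at an unadjusted p under 0.05), with a median log2 change of 1.86. Clec1b, a receptor of platelets and of liver sinusoidal and Kupffer cells, was higher by 4.80 on the log2 scale (SE 0.66), Klra2 by 1.63 (SE 0.28) and Klrb1b by 1.86 (SE 0.35). Cd69, an activation marker of lymphocytes, had 1.58 CPM in liver tumors and 0.782 CPM in primary tumors and did not pass. Klra6 did not pass either, at 0.591 CPM in liver tumors and 0.894 CPM in primary tumors.

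Of 23 tested NK receptors of other families, 7 were higher and 1 was lower, with a median of 1.01. Itgal, the LFA-1 chain by which killer cells grip their targets, was higher by 2.42 (SE 0.25), the SLAM receptor Ly9 by 1.63 (SE 0.32) and Slamf7 by 1.55 (SE 0.32). The lower one, named after its value was seen, was Il18rap, a chain of the interleukin-18 receptor, at 26.2 CPM in liver tumors and 51.8 CPM in primary tumors. Fcgr3 (CD16), with 40.6 CPM in liver tumors and 32.6 CPM in primary tumors, did not pass. Il18r1, the other chain of the interleukin-18 receptor, had 7.09 CPM in liver tumors and 19.3 CPM in primary tumors and did not pass either.

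Adaptors and kinases that carry the receptors' signals gave 8 higher and 0 lower of 17 tested (edgeR; 0 also at an unadjusted p under 0.05), with a median of 0.85. Tyrobp (DAP12), the partner of Ly49D and Ly49H, had 69.4 CPM in liver tumors and 31.8 CPM in primary tumors (log2 change 1.13, SE 0.20). The kinases Fyn (1.23, SE 0.22) and Syk (1.17, SE 0.22) were higher too. Ptpn11 and Ptpn6, the phosphatases on which inhibitory Ly49 receptors and NKG2A act, did not pass, with 119 and 62.8 CPM in liver tumors and 86.8 and 54.7 CPM in primary tumors. In the liver single-cell library, Tyrobp had 139381 captured transcripts (UMIs) over all barcodes, with 97 in NK-like cells. Fcer1g had 162666, with 87 in NK-like cells. Bulk values of these adaptors therefore cannot be read as levels of NK cells. The part of NK cells in the receptor lists above was not tested.

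Of the ligands, 6 of 15 tested were higher and 0 lower (edgeR; 1 lower at an unadjusted p under 0.05), with a median of 0.77. Clec2h, a ligand of the Klrb1 family, was higher by 7.33 (SE 0.92), from 762 reads in liver tumors and 6 in primary tumors. With so few primary reads, it passed the filter on low counts by its liver libraries alone. Its place in the count and in the median of 0.77 thus came from the site where it was high. In the liver single-cell library Clec2h had 2 UMIs over all barcodes, and the source of its bulk reads was not tested. B2m, the light chain of class I molecules that Ly49 receptors read, was higher by 1.37 (SE 0.35), and H2-T23, which encodes Qa-1, the ligand of CD94, by 0.77 (SE 0.21). The NKG2D ligands Raet1d, Raet1e, H60b and Ulbp1, named here because Klrk1 changed, were tested and did not pass. Raet1d had 9.46 CPM in liver tumors and 2.43 CPM in primary tumors, and Ulbp1 had 18.0 CPM at both. H2-D1 (988 CPM in liver tumors and 694 CPM in primary tumors) and Cdh1, a ligand of KLRG1 (282 CPM in liver tumors and 677 CPM in primary tumors), did not pass.

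NK effector genes gave few calls. Of 14 tested, 1 was higher, 0 were lower (edgeR; 0 also at an unadjusted p under 0.05), and the median was -0.03. The higher one was Tnfsf10, which encodes the death ligand TRAIL, by 1.26 (SE 0.28). Ccl5 had 6.76 CPM in liver tumors and 7.43 CPM in primary tumors, and Ctsw had 3.47 CPM in liver tumors and 3.77 CPM in primary tumors; neither passed. Of 12 tested NK transcription factors, Tox was higher (1.28, SE 0.37) and Gata3 lower (-1.13, SE 0.33), with a median of 0.52, while Id2 (181 CPM in liver tumors and 135 CPM in primary tumors) and Ets1 (72.9 CPM in liver tumors and 71.0 CPM in primary tumors) did not pass.

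Of genes that feed or attract NK cells, 5 of 10 tested were higher and 0 lower (edgeR; 1 at an unadjusted p under 0.05), with a median of 0.99. Cxcl9, a chemokine for CXCR3-bearing cells, was higher by 1.69 (SE 0.29), the interleukin-15 presenting receptor Il15ra by 2.79 (SE 0.54) and Cxcr3, the receptor of Cxcl9, by 1.57 (SE 0.34). Cx3cl1 (79.8 CPM in liver tumors and 136 CPM in primary tumors) and Il18 (18.1 CPM in liver tumors and 14.3 CPM in primary tumors) did not pass. Of 12 genes that separate conventional NK cells from type 1 innate lymphoid cells, 4 were higher and 2 lower, with a median of 0.63. The list mixes genes of both cell types, so its median describes neither. Rora was higher by 4.12 (SE 0.46) and S1pr5 by 2.98 (SE 0.43). The lower ones, named after their values were seen, were Itga2 (-0.86, SE 0.22) and Cma1 (-2.44, SE 0.66). Itga1, at 69.1 CPM in liver tumors and 44.2 CPM in primary tumors, and Itgam, at 14.0 CPM in liver tumors and 11.6 CPM in primary tumors, did not pass. Rora is also a gene of hepatocytes. In the liver single-cell library, Itga2, Itgam and Itga1 had 8702, 20463 and 6650 UMIs over all barcodes, few of them in NK-like cells. Cma1 had 360, with 2 in NK-like cells. Bulk values of this list therefore cannot be read as levels of either cell type.

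T cells share several of these receptors, so their genes were counted in the same way. Of 15 tested, 2 were higher and 0 lower (edgeR; 0 also at an unadjusted p under 0.05), with a median of 0.54. The 2 were Icos (2.22, SE 0.36) and Themis (2.17, SE 0.65). Bcl11b (6.83 CPM in liver tumors and 10.8 CPM in primary tumors) and Cd8a (4.08 CPM in liver tumors and 3.65 CPM in primary tumors) did not pass. The part of T cells in the bulk values of the members was not tested.

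By the profile over the 6 libraries, the 5 genes outside the lists most like the mean of the 7 tested members, among 14050 genes with at least 1 CPM, were Homer1, Bcl6, Glt28d2, Trim5 and Camkk1. Their root-mean-square distance on centred log2 values ran from 0.046 for Homer1 to 0.096 for Camkk1. Without Klra4 in the mean, the 5 nearest genes were Zmat1, Nup210, E230029C05Rik, Vma21 and Txlng. From that mean without Klra4, the distance of Klra4 itself was 0.76 and that of Klrk1 0.50.

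In the single-cell libraries a cell was called at 1500 or more UMIs (unique molecular identifiers, 1 for each captured transcript), 200 or more genes and at most 10% mitochondrial UMIs. That gave 7509 cells in the liver library and 2249 in the primary library, which share 7 barcodes. The mitochondrial limit removed unequal parts of the barcodes with 1500 or more UMIs. In the liver library 4887 of 12505 were over it, and in the primary library 5208 of 7490. Shares of cells given below are therefore shares of the barcodes that were left. Within the lymphoid cluster, cells with at most 1 UMI of Cd3d, Cd3e, Cd3g and Trac and at least 5 UMIs of NK markers were called NK-like, and cells with at least 3 UMIs of the T cell genes T-like. None of the 10 members, and no other Klr gene, was used in the clustering or in that rule, which was set after the cells had been seen. The NK markers were genes such as Nkg7, Gzma, Eomes and Txk, and 12 of the 13 had a UMI in the liver NK-like cells. That is part of the rule, and 11 of the 13 had a UMI in the liver T-like cells too. Per 1000000 UMIs of the class, the list summed to 12993 in NK-like and 8376 in T-like liver cells. Eomes had 307 and 21.8, whereas Nkg7 was alike in both, at 1516 and 1560.

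NK-like cells were rare, with 12 among 7509 cells called in the liver library (0.160%, exact binomial interval 0.0826% to 0.279%) and 1 among 2249 in the primary library. The rule gave 143 T-like cells in liver and 118 in the primary library, and 4 liver lymphoid cells were left undecided. Of NK-like and T-like cells together, the NK-like share came to 7.74% in liver (interval 4.06% to 13.1%) and 1 of 119 in the primary library. Each site had 1 library, so the sites were not compared by a test, and intervals here cover counting error only.

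The 12 liver NK-like cells held 30 UMIs over 6 of the 15 T cell genes, 17 of them of Trbc1, which NK cells transcribe without rearrangement. Cd3e, Cd3g, Cd8a and Cd4 were at 0. Low counts of Cd3e and Cd3g are part of the rule, which allowed at most 1 UMI of Cd3d, Cd3e, Cd3g and Trac in a cell. Of genes known from conventional NK cells, Eomes, itself among the NK markers of the rule, had 16 UMIs in these cells, Itgam 6, Itga2 4 and S1pr5 0. Of genes known from type 1 innate lymphoid cells, Itga1 had 3 UMIs, and Cxcr6 and Il7r had 0. Tbx21, used by both, had 1. Levels in single cells are CPM as well, here the summed UMIs of a gene over all UMIs of the class, without TMM scaling. Markers of other cells were present too: the epithelial list summed to 2476 CPM in NK-like cells and 1418 in T-like cells of the liver library, and the macrophage list to 2322 in NK-like cells and 3084 in T-like cells. In epithelial cells and in macrophages, the members other than Klra4, Klrk1 and Klrd1 were at or under 1.58 CPM. The part of epithelial and macrophage RNA in the member values of NK-like cells was not tested.

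In the liver library 9 of the 10 members were higher in NK-like than in T-like cells, with exact Poisson intervals that did not meet. Klrg1 was the exception. A gate on marker genes in place of the clusters left 3 NK-like cells and gave 3 members. It drew on all called cells and set T-like cells by another rule. Its NK-like cells could hold no UMI of Cd3d, Cd3e, Cd3g, Trac, Trbc1 or Trbc2. Nor could they hold any of Csf1r, Adgre1, C1qa, C1qb, C1qc, S100a8, S100a9, Cd79a or Ms4a1. By the main rule, Ncr1, Klrb1f, Klra7 and Klrg1 had under 20 UMIs over both classes. Of 6084 genes with at least 20, the other 6 members among them, 1.97% were higher and 1.84% were lower in NK-like cells by the same rule. No gene level was tested, since each class came from 1 library.

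**Figure D3:**
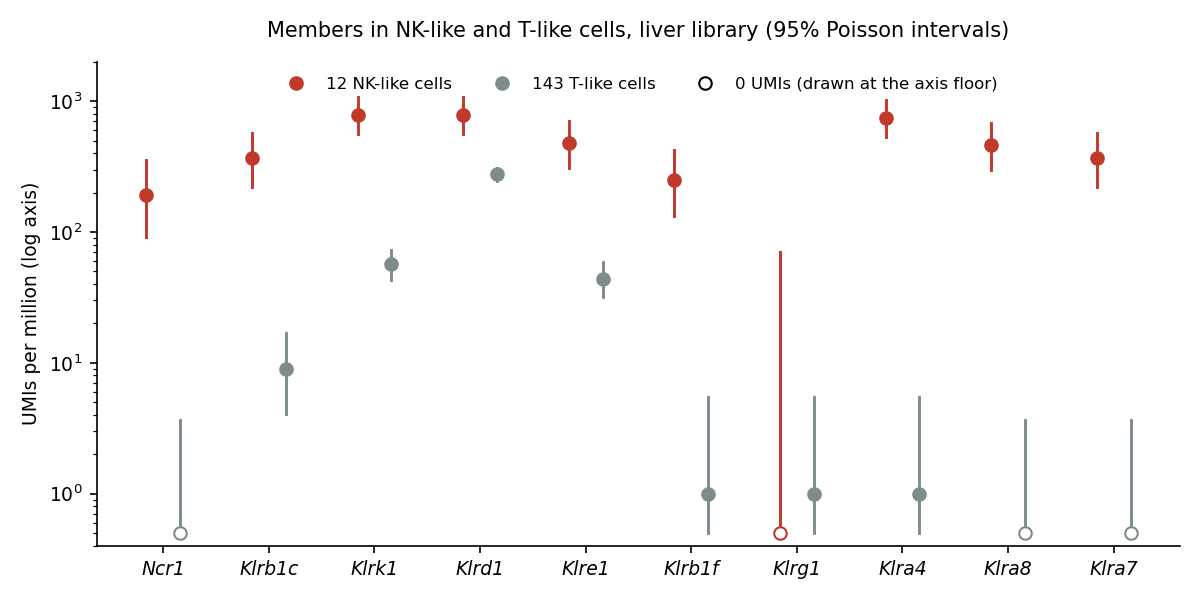
Summed UMIs as CPM (log axis) of each member in 12 NK-like and 143 T-like cells of the liver library, with 95% Poisson intervals; open circles are counts of 0. The 2 classes are apart for every member but Klrg1, and nearest for Klrd1, at 787 in NK-like cells and 276 in T-like cells.

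Ncr1 had 10 UMIs in NK-like cells (192 CPM, interval 92.0 to 353) and 0 in T-like cells of the liver library, which makes it at least 64.6-fold higher with 3 UMIs over the class as the floor. The 95% counting interval of that ratio began at 43.4. It was seen in 8 of the 12 NK-like cells, and outside them in 2 of 3000 epithelial cells of that library. The NK-like cell of the primary library held all 3 Ncr1 UMIs of its library's called cells. Among called cells, Ncr1 was thus found in NK-like cells nearly alone, and at a low level in each. Over all barcodes, called or not, Ncr1 had 34 UMIs in the liver library and 8 in the primary library. Called cells held 12 of them in the liver library and 3 in the primary library, and the others have no class.

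Klrb1c had 365 CPM in NK-like cells (interval 220 to 569) and 8.92 in T-like cells (4.08 to 16.9), a ratio of 40.9. It was seen in 8 of 12 NK-like cells and 3 of 143 T-like cells. More of its UMIs came from macrophages in all, 47 against 19 in NK-like cells, since macrophages were 2452 cells, but at 1.58 CPM there. Klrk1 had 787 CPM in NK-like cells (565 to 1067) and 56.5 in T-like cells (42.8 to 73.2), a ratio of 13.9, and was seen in all 12 NK-like cells and in 29 of 143 T-like cells.

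Klrd1 had 787 CPM in NK-like cells (565 to 1067) and 276 in T-like cells (245 to 311), a ratio of 2.85 and the smallest of the 9. It was seen in 11 of 12 NK-like cells and 73 of 143 T-like cells. By the gate on marker genes the order was the other way, with 89.1 in 3 NK-like cells and 168 in T-like cells. Klre1 had 480 CPM in NK-like cells (310 to 708) and 43.6 in T-like cells (31.7 to 58.5), a ratio of 11. Klrb1f had 13 UMIs in NK-like cells (249 CPM) and 1 in T-like cells, a ratio whose 95% counting interval ran from 37.8 to 10700. Klrg1 had 0 UMIs in NK-like cells, which allows up to 3, or 57.6 CPM, and 1 UMI in T-like cells. With 3 UMIs in all called liver cells and 4 in all called primary cells, Klrg1 could not be placed in a cell type at this depth.

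The Ly49 genes were nearly absent from T-like cells, as were Ncr1 and Klrb1f. Klra4 had 39 UMIs in NK-like cells (748 CPM, interval 532 to 1023) and 1 UMI in T-like cells, a ratio with a counting interval from 128 to 30588. Klra8 had 24 UMIs in NK-like cells (461 CPM) and 0 in T-like cells, at least 155-fold higher, and Klra7 had 19 UMIs (365 CPM) and 0, at least 123-fold higher, with the same floor of 3 UMIs over the class. The counting interval of the ratio began at 117 for Klra8 and at 90.4 for Klra7. At least 1 UMI of these 3 genes was seen in 11 of 12 NK-like cells and in 1 of 143 T-like cells.

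**Figure D4:**
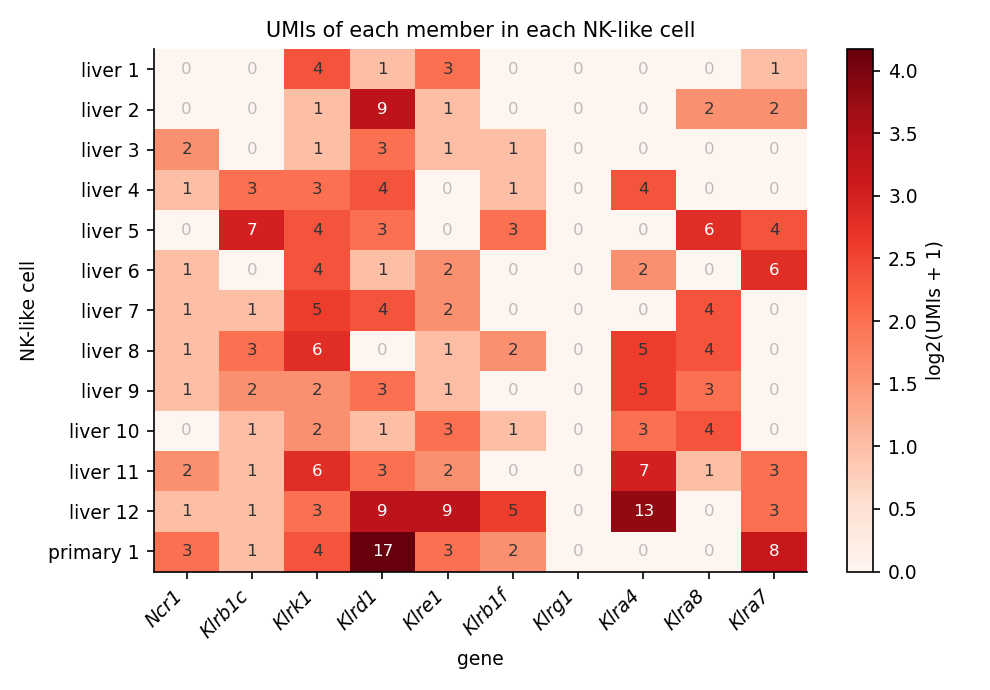
UMIs of each member (columns) in each NK-like cell (rows), 12 of the liver library and 1 of the primary library, with the count in each box. Klrk1 is present in every cell and Klrg1 in none, while each of the others is at 0 in at least 1 cell.

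Among the 12 liver NK-like cells, Klra4 was seen in 7, Klra8 in 7 and Klra7 in 6, and at least 2 of these genes in 8 cells. Presence in only some of these cells was shared with Klrb1f (6 cells), Ncr1 and Klrb1c (8 each), Klre1 (10) and Klrd1 (11). Where Klra4 was seen, it ranged from 2 to 13 UMIs in a cell. Each NK-like cell of the liver library held 4 to 8 of the 10 members, with a median of 6. T-like cells held 0 to 4, with a median of 1, although their median depth was higher, at 6082 UMIs against 4546 in NK-like cells. In the primary library the NK-like cell held 7 members and its highest were Klrd1 with 17 UMIs and Klra7 with 8; the T-like cells there held a median of 1.5. Thinned to 1000 UMIs per cell, Klrk1 was seen in 50% of NK-like and 5.59% of T-like liver cells, and Klrd1 in 41.7% of NK-like and 21.7% of T-like liver cells; unthinned, the shares were 100% and 20.3% for Klrk1 and 91.7% and 51.0% for Klrd1.

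Outside NK-like cells the members took different places. Klrd1, Klrk1 and Klre1 were found in T-like cells, and mostly in those with Cd8a or Cd8b1. In liver T-like cells with Cd8a or Cd8b1 (104 cells), Klrd1 had 313 CPM, against 49.7 in those without (39 cells). In the primary library the same cells (106 and 12) had 846 and 55.7. Klre1 had 50.7 CPM in the liver T-like cells with Cd8a or Cd8b1 and 0 UMIs in those without, which allows up to 21.3 CPM. The liver cells without held 140892 UMIs in all and those with 868241, and the part of depth in this split was not tested. Over all T-like cells, Klrd1 had 276 CPM in the liver library and 801 (757 to 846) in the primary library, Klrk1 56.5 in the liver library and 122 (105 to 140) in the primary library, and Klre1 43.6 in the liver library and 94.1 (79.5 to 111) in the primary library. All 3 had the higher level in the primary library, from 1 library each. T-like cells held 90.7% of all Klrd1 UMIs of called cells in the primary library and 52.6% in the liver library, whereas NK-like cells held 7.74% of them in the liver library.

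Klrk1 was also found in dendritic cells, with 91.9 CPM (73.9 to 113) in the liver library and 112 (96.1 to 129) in the primary library. A dendritic cluster led by Xcr1 and Clec9a had 92.7 CPM in the liver library and 113 in the primary library. Macrophages had 6.56 CPM in the liver library and 12.7 in the primary library. Within them, a cluster led by Cxcl9 stood highest among those with over 50 cells, at 65.3 in liver cells (72 cells, seen in 38.9%), with 20.5 in primary cells (408 cells). In all, 48.3% of liver Klrk1 UMIs came from macrophages, 22.3% from dendritic cells, 14.1% from T-like cells and 10.1% from NK-like cells. Free RNA, read from barcodes with at most 100 UMIs, held Klrk1 at 4.73 CPM in the liver library and 4.36 in the primary library. Macrophages as a whole in the liver library were near that level, and dendritic cells were far above it. Klrd1 was in dendritic cells too, at 68.4 CPM in the liver library and 45.4 in the primary library, against 6.40 and 13.8 in free RNA of the same libraries.

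**Figure D5:**
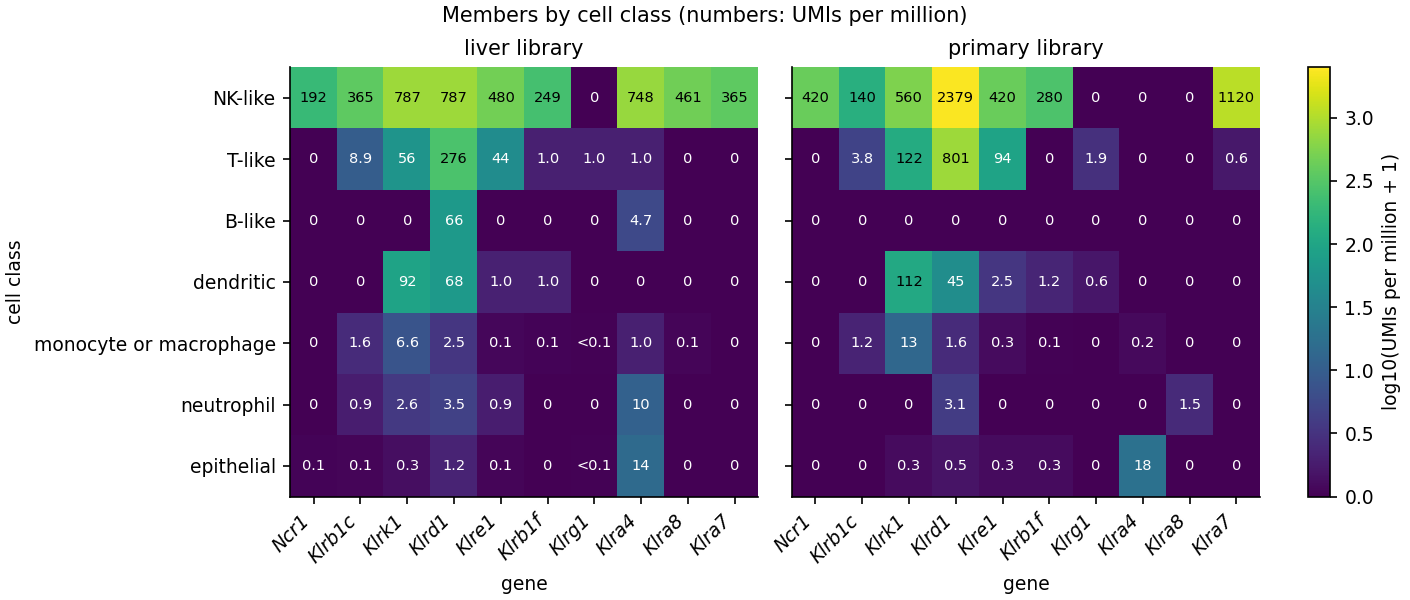
CPM of each member in 7 cell classes of the liver library (left) and the primary library (right), as color on a log10 scale and as numbers. The NK-like row of the primary library is 1 cell; Klrk1 and Klrd1 extend to T-like and dendritic cells, and Klra4 has 14 CPM in liver and 18 in primary epithelial cells.

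Klra4 had most of its UMIs in epithelial cells. Epithelial cells, which remained after the CD45+ sort, held 343 of the 443 Klra4 UMIs of called liver cells (77.4%) and 67 of the 73 of primary cells (91.8%). NK-like cells held 39 UMIs, or 8.80%, in the liver library. Whether the epithelial UMIs, and the bulk reads, come from Klra4 itself was not tested, since that needs the reads. The level in epithelial cells was 14.2 CPM in the liver library (12.7 to 15.7) and 17.6 in the primary library (13.7 to 22.4), against 3.34 and 2.91 in free RNA of the same libraries. The UMIs were uneven among epithelial clusters. A cluster led by Xist and Tm4sf1 had 25.6 CPM in liver cells (267 UMIs in 69 of 357 cells) and 13.5 in primary cells (29 UMIs in 7 of 59 cells). A cluster led by Prl and Tnnt2 had 29.5 in liver cells (39 UMIs in 21 of 215 cells) and 63.4 in primary cells (30 UMIs in 4 of 49 cells). In the same 3000 liver epithelial cells, Klra7 and Klra8 had 0 UMIs, which allows up to 0.124 CPM, and Klrk1 had 8. In bulk, Klra4 was the member with the most reads. In called cells Klrd1 had more UMIs than Klra4 in the liver library (530 and 443) and in the primary library (1380 and 73). Over all barcodes, called or not, Klrd1 had fewer than Klra4 in the liver library (1069 and 1293) and more in the primary library (1918 and 169). The single-cell libraries came from a CD45+ sort, and its part in this order was not tested. The bulk level of Klra4 did not differ between the sites beyond the spread of libraries.

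Genes outside the set, in the lists or not, were also compared between NK-like and T-like cells of the liver library. Among the 264 genes that are no members, with at least 20 UMIs in NK-like cells, the largest ratios of NK-like to T-like cells were those of Tyrobp (1862 and 114 CPM, 16.3-fold), Ccr2 (461 and 34.7, 13.3-fold), Fcer1g (1670 and 216, 7.73-fold) and Txk (422 and 60.4, 6.98-fold). They were followed by Ctla2a, Dnajc15, Ms4a4b, Jak1, Itgb1 and Gzma, at 4.06-fold to 2.43-fold. The minimum was set in NK-like cells only, so this ranking favours genes that are high in them. Tyrobp and Fcer1g are the adaptors through which Ly49D, Ly49H, NK1.1 and NKp46 signal. Txk and Gzma were among the markers that named the class, so their ratios are part of its definition. Of lectin-like receptors that are no members, Klra9 had 11 UMIs in NK-like cells and 0 in T-like cells, and Klri2, a partner of Klre1, had 14 and 7 UMIs (269 CPM in NK-like cells and 6.94 in T-like cells). Klrc1 (NKG2A), the partner of CD94, had 3 UMIs in NK-like cells and 96 in T-like cells, or 57.6 and 95.1 CPM, with intervals that met.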

How the data were processed

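Bulk RNA-seq of 3 liver metastatic and 3 primary tumors and 10x single-cell RNA-seq of CD45+ cells, 1 library per site, were analysed from the deposited tables. Bulk values were deposited as raw counts per gene symbol and, in another table, as FPKM made by the authors. Each 10x matrix lists UMI counts of 31053 genes over 6794880 barcodes, cells and empty droplets alike, per the file headers. The submitters' processing notes name bcl2fastq, Cell Ranger and the mm10 build, with no role for each. For bulk, the aligner and the read counter are not given in the sources used here. The barcode list is longer than that of the v2 chemistry named in the labels.

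The 10 members, the gene lists and the rules were chosen with earlier results of these data known. Bulk counts were filtered with filterByExpr, TMM-scaled and tested for liver over primary tumors (two-sided) in edgeR 4.0.16 (R 4.3.3) with a robust quasi-likelihood fit and Benjamini-Hochberg adjustment over 16487 genes at 0.05. CPM use TMM-scaled totals. DESeq2 1.42.0 and limma 3.58.1 (voom on the counts, and log2(FPKM + 1) and log2(FPKM + 0.1)) were alternatives. On simulated counts of 16161 genes, 21 of 100 genes changed by 1 and 86 of 100 changed by 2 on the log2 scale were called, and 7 unchanged genes.

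Cells were clustered in scanpy 1.11.5 (2000 variable genes without Klr genes and Ncr1, 30 components, Leiden resolution 1, no integration). Scrublet's automatic threshold marked 1 of 7618 liver and 5 of 2277 primary barcodes and had not worked, so barcodes with a score over 0.25 were removed instead (109 liver and 28 primary). Intervals are exact at 95%, Poisson for summed UMIs and Clopper-Pearson for shares. The authors' cell annotation was not used here, so classes are rebuilt. Genes named from other lists were up to 3 called by p-value, those with at least 1 CPM first, and the 2 with the highest CPM that did not pass; 1 gene so chosen is not reported here. Alternatives changed 1 choice at a time: the tool, scaling, filter, replicates, cell minimums, clustering and the split of lymphoid cells. Promoters were aligned globally, and the letters searched for were not matched with any other motif.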

Additional observations from a re-analysis of the deposited data

How the results depend on the processing

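No bulk result changed direction under any alternative run. Klrk1 stayed past the threshold in 14 of 14 bulk alternatives (log2 change 0.51 to 2.37), Klrd1 in 11 and Klrb1c in 8. Klra4 was not called in any of 15 (log2 change -0.71 to -0.06). Klrb1c missed the threshold in limma on log2(FPKM + 1) (0.22, adjusted p = 0.0735) and on log2(FPKM + 0.1) (1.03, adjusted p = 0.0653). On both scales 4 members were higher: Klrk1, Klrd1, Ncr1 and Klra7, of which Ncr1 and Klra7 had too few reads for the test on counts. The cause was not tested. Leaving out 1 library at a time, 1 to 3 members were higher, with 1 left without primary replicate 1 or primary replicate 3. Over all genes, 1810 (without liver replicate 2) to 3346 (without primary replicate 2) were higher and 134 (without liver replicate 2) to 1468 (without primary replicate 2) lower. The other lists together gave 39 higher and 4 lower genes, and 18 (without liver replicate 2) to 51 (without primary replicate 2) higher and 0 (without liver replicate 2) to 4 lower when 1 library was left out. Their lower count was 7 with DESeq2 and with no filter, 2 with limma-voom and with a mean of at least 5 CPM, and 1 on either FPKM scale. A mean of at least 5 CPM kept only Klra4 among the members, so 0 members were higher, and 22 genes of the other lists were. On log2(FPKM + 1), 672 of all genes were lower, against 1032 by edgeR on counts. The cause was not tested. The ratio of member reads without Klra4 in liver over primary tumors was 1.34 per Ptprc read (1.14 to 1.52 with 1 library left out) and 2.27 per CD3 read (1.79 to 2.65).

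With the replicate number as a block, 2703 genes were higher and 873 lower, 3 members were higher and 0 lower, and the other lists gave 35 higher and 6 lower. The block moved none of these counts by over 1.5 times and changed no call of a member. Deviations from the group means correlated at -0.19, 0.27 and 0.10 between liver and primary libraries of the same number, so no pairing was assumed.

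In the single-cell libraries, 9 members were higher in NK-like than in T-like liver cells under 10 of the 11 alternatives, which moved cell minimums, clustering, doublets and the lymphoid split. NK-like liver cells then numbered 9 to 15. The alternatives on doublets and on the lymphoid split were chosen after seeing the data. The other alternative was a gate on marker genes over all called cells, with another rule for T-like cells. Its NK-like cells could hold no UMI of the CD3 genes, Trac, Trbc1 or Trbc2, nor of several macrophage, neutrophil and B cell genes. This gate left 3 NK-like cells in the liver library (1.61% of NK-like and T-like cells) and 0 in the primary library (0%), and 3 members higher. Klrd1 was then lower in NK-like cells, at 89.1 CPM against 168 in T-like cells, and Ncr1 was at 0. With Scrublet's automatic threshold the primary library had 2 NK-like cells. Depth limits Ncr1, Klra7 and Klra8 in bulk, and Klrg1 in the single cells.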
